A study of Homo sapiens with 6 samples.

Results

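The 10 genes described here are the Notch receptors *NOTCH1*, *NOTCH2* and *NOTCH3*, the ligand genes *JAG1*, *JAG2* and *DLL1*, and the HES/HEY genes *HES1*, *HES4*, *HEY1* and *HEY2*. They were found by gene symbol, with no threshold on their values, among the 20347 symbols of an RNA-seq experiment in PaTu8988t cells, an established line of pancreatic ductal adenocarcinoma (PDAC). All 10 symbols were found, and all 10 passed the filter on low values (10 normalized reads on average over the 6 libraries). The experiment asked how gene expression changes when *SAMD1*, which encodes a chromatin factor that binds unmethylated CpG islands, is deleted. Poly(A) RNA of 3 Control replicates and 3 SAMD1 KO replicates was sequenced. Control cells carried the Lenti-CRISPR V2 plasmid with an unspecific guide RNA, and SAMD1 KO cells carried the same plasmid with guides against *SAMD1*, so both groups received Cas9, and the labels name no other difference in allele or agent. The SAMD1 KO replicates are independent lines, each grown from 1 puromycin-selected clone, and such a line also carries whatever else its founder cell carried. The labels give the Control replicates as numbers only, so their spread may be technical.

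Notch receptors are single-pass proteins that are cut inside the cell membrane when a ligand of the Jagged or Delta-like family on a neighbouring cell pulls on them. The freed intracellular part enters the nucleus, joins the DNA-binding protein RBPJ and a Mastermind co-activator, and switches on target genes, of which the HES and HEY repressors are the best known. In the pancreas Notch signalling is known for holding progenitor cells in an undifferentiated state, and it is reactivated during the formation of PDAC.

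In SAMD1 KO cells, 2 of the 3 ligand genes (*JAG1* and *JAG2*) and 2 of the 4 HES/HEY genes (*HEY1* and *HEY2*) were higher, while none of the 3 receptor genes passed the test in either direction. The mean normalized read count of *HEY1* was 5.84 times and that of *HEY2* 5.01 times the Control mean, against 2.44 times for *JAG1* and 2.00 times for *JAG2*. A gene was called when its log2 fold change exceeded 0.5 in size with an unadjusted limma p below 0.01, the cut-off of the study. By this rule 4 of the 10 genes were higher, where 5.77% of all 12773 tested genes were. The 10 genes were chosen with earlier results of these data known, so comparisons with all tested genes are a description only. None of the 10 (0) was lower by limma, where 2.08% of all tested genes were, and none was lower at an unadjusted p below 0.05 or by edgeR or DESeq2. The same 4 genes were the ones whose SAMD1 KO libraries did not overlap with the Control libraries, and 4 of 10 is near the 37.8% of all tested genes without overlap. The median log2 fold change of the 10 genes was 0.49 and that of all tested genes −0.01, and 9 of the 10 values were positive.

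The DNA just before the RefSeq start of these genes is shown because SAMD1 prefers the motif GCGC and because RBPJ recognises the core TGGGAA, which reads as TTCCCA on the other strand. The sequences are RefSeq promoters of GRCh38.p14, of which the 250 bases before the start were searched. Of the 10 genes, 8 had an entry, all but *DLL1* and *HEY1*. The windows of *NOTCH2* and *HEY2* lie inside the extents given for these genes here, which are from GENCODE and begin further upstream than the RefSeq starts. Each of the 4 sequences printed first runs 5′ to 3′ on the strand of the gene, without any base that lies in an annotated exon, and the capitals mark matches to GCGC and to the RBPJ core. The 4 stretches belong to the ligand genes *JAG1* (chr20:10674000-10674249, minus strand) and *JAG2* (chr14:105168825-105169026, minus strand) and to the HES/HEY genes *HES1* (chr3:194135898-194136147, plus strand) and *HEY2* (chr6:125749382-125749631, plus strand).
JAG1: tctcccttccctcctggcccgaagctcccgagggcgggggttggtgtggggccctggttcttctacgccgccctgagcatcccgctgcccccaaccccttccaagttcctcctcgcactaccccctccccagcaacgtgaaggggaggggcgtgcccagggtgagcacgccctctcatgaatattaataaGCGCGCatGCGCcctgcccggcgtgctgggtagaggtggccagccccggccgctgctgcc
JAG2: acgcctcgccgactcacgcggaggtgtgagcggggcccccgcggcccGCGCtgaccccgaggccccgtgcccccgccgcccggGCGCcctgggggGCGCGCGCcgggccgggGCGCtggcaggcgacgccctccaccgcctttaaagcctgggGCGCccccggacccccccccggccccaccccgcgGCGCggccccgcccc
HES1: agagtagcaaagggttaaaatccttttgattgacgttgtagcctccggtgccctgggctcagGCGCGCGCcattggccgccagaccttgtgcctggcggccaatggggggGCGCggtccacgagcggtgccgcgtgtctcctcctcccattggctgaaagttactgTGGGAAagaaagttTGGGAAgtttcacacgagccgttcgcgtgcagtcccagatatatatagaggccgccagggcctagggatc
HEY2: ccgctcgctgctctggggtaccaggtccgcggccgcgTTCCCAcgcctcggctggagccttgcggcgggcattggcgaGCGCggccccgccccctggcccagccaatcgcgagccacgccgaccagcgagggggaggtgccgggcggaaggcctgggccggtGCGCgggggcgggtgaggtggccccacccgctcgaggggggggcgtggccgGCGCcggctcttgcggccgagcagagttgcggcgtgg

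The RBPJ core was found before all 3 of the HES/HEY genes with an entry, before none of the 3 receptor genes and before neither *JAG1* nor *JAG2*. It occurred in 20.8% of the 35116 promoter windows of the same length, counted on both strands. *HES1* held the core in 2 places in the same orientation, from −84 to −79 and from −70 to −65 counted from the start. *HEY2* held it once, from −213 to −208, as TTCCCA. In *HES4* the core spanned −76 to −71, with 5 of its 6 bases in an annotated exon of *HES4*, and it is shown with 12 bases on either side (chr1:1000156-1000185, minus strand). Of 5 other pathway genes searched, *HES6*, *NRARP*, *DLL4* and *MAML3* held no core, and *L3MBTL3* held it in 2 of its 3 windows.
HES4: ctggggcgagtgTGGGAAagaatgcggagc

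GCGC reads the same on both strands, and overlapping matches were counted separately. It occurred in 53.4% of all windows, with a median of 1 match. All 8 windows held it, with 3 matches each in *NOTCH2*, *NOTCH3*, *JAG1* and *HEY2*, 4 in *HES1*, 5 in *NOTCH1*, 6 in *HES4* and 9 in *JAG2*. Of all windows, 97.8% had as many as *JAG2* or fewer, and 8 of its 9 matches lie in the stretch printed here, which leaves out the bases in an annotated exon. The 8 windows were also rich in G and C, from 59.2% (*HES1*) to 81.6% (*JAG2*), beside a median of 58.0% over all windows. They held from 17 (*JAG1*) to 38 (*JAG2*) CpG, beside a median of 11. How far the GCGC numbers go with this base make-up was not tested. GCGC was carried by genes that were higher in SAMD1 KO cells and by those not called, and *JAG1*, *HEY2*, *NOTCH2* and *NOTCH3* had equal numbers. The E-box CACGTG, counted on both strands, was found in 6.34% of all windows and in none of the 8. A match is a stretch of letters and not a measured binding site.

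**Figure D1:**
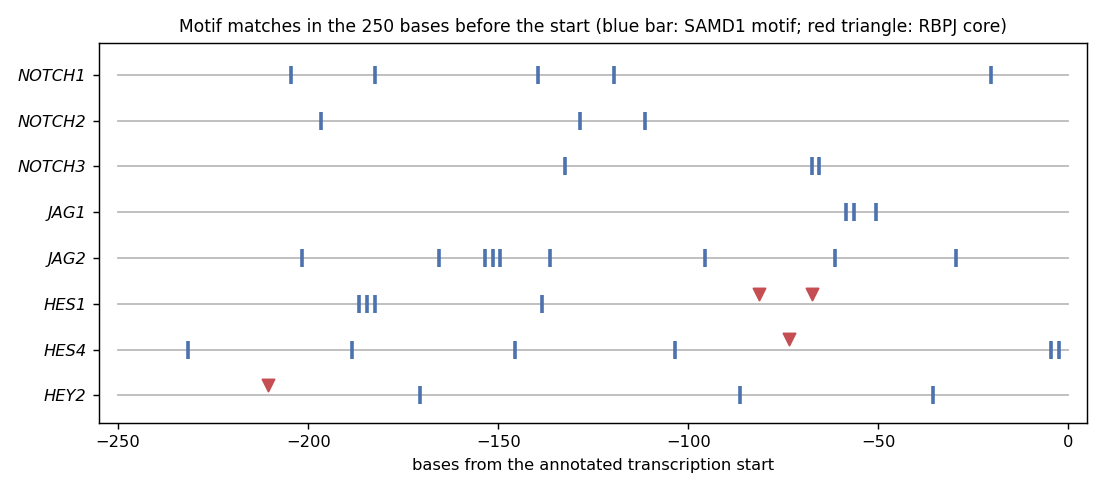
Positions of GCGC (blue bars) and of the RBPJ core (red triangles) in the 250 bases before the start of the 8 genes searched, with the horizontal axis in bases from the start. Triangles lie only in the rows of *HES1* (2), *HES4* (1) and *HEY2* (1), while every row holds at least 3 blue bars.

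Library totals ran from 35589477 to 45172216 reads, and the normalized read counts are reads divided by a size factor, with 1 read worth between 0.864 and 1.15. *SAMD1* itself (chr19:14087851-14091036) was lower in each SAMD1 KO library than in any Control library, with a change of −1.32 on the log2 scale (standard error 0.10, limma adjusted p = 0.000724). Of 8 epithelial and ductal markers, 7 were detected above 3 reads, with *KRT8* and *KRT18* highest and no reads of *KRT19*, and their summed normalized count was 63627 to 66838 in Control and 68940 to 110460 in SAMD1 KO libraries. Of 6 fibroblast markers, 3 were above 3 reads in some library (sums of 164 to 166 in Control and 148 to 443 in SAMD1 KO) and *DCN* and *LUM* had none. The 5 endothelial markers summed to 80.1 to 89.3 and 36.6 to 85.4, the 5 leukocyte markers to 14.9 to 19.4 and 10.9 to 34.2, and all 6 acinar and islet markers were at 0. Such sums cover unlike changes of single markers. *COL1A1* averaged 50.6 in Control and 26.2 in SAMD1 KO cells, *COL3A1* 111 and 270, and *CDH5* 33.1 and 10.6, and none of these was called by limma. Among the epithelial markers limma called *KRT7*, *KRT18* and *SOX9* higher, while *EPCAM*, *KRT8*, *CDH1* and *MUC1* were not called. The part of these differences in the results was not tested. In RNA from a whole culture, fewer cells that express a gene and less RNA per cell cannot be told apart.

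No receptor gene passed the test, by limma, edgeR or DESeq2. *NOTCH1* (chr9:136494433-136546048, minus strand), which encodes a receptor with both activating and inactivating mutations in cancer, was measured at 1295, 1589.9 and 1404 normalized counts in Control replicates 1 to 3 and at 1433, 1328 and 1238 in SAMD1 KO clones 1 to 3. The groups overlapped, and Control replicate 2 was the highest and clone 3 the lowest library. The means were 1429.7 ± 149 and 1333 ± 97.7 (SD, n = 3 each), with a difference of −0.10 on the log2 scale (standard error 0.09, 95% interval −0.32 to 0.12, limma adjusted p = 0.532).

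*NOTCH2* (chr1:119911553-120100779, minus strand) encodes the receptor with the most reads in these cells. Its normalized counts were 5418, 5489 and 5505 in Control and 6112, 5104 and 6160.4 in SAMD1 KO cells. The Control replicates were close together, and clones 1 and 3 lay above them while clone 2 lay below. The difference on the log2 scale was 0.08 (standard error 0.08, 95% interval −0.11 to 0.26, limma adjusted p = 0.557). Reads may be shared with the similar NOTCH2NL genes, and the 4 of these in the data summed to no more than 0.829% of the *NOTCH2* count in any library. How reads that fit several genes were counted is not given in the sources used here, so this sum does not show how many are shared.

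*NOTCH3* (chr19:15159038-15200995, minus strand), a receptor best known from vascular smooth muscle, was the lowest of the 3, with 114, 158 and 127 in Control and 124, 219 and 216 in SAMD1 KO cells. Clones 2 and 3 lay above every Control library, and clone 1 lay within the Control range. The means were 133 ± 22.2 and 186 ± 54.1, a difference of 0.45 on the log2 scale (standard error 0.25, 95% interval −0.14 to 1.03, limma adjusted p = 0.275). Without clone 1 the value was 0.72 and passed the cut-off (limma adjusted p = 0.0287), so clone 1 decided whether *NOTCH3* was called. Of the 3 receptor genes, the intervals of *NOTCH1* and *NOTCH2* lay within the cut-off of 0.5 on either side, and that of *NOTCH3* did not.

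**Figure D2:**
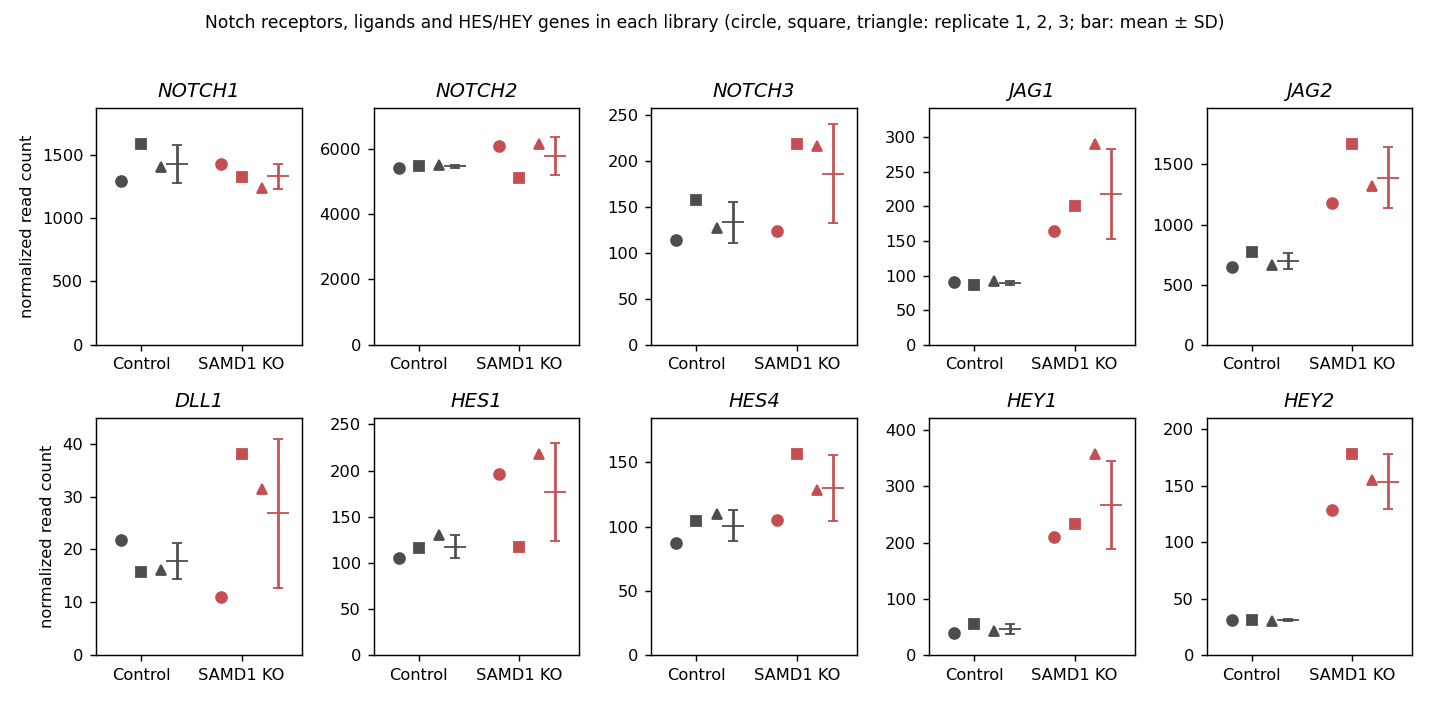
Normalized read count (vertical axes from 0, each gene on its own scale) of the 10 genes in each of the 3 Control (grey) and 3 SAMD1 KO (red) libraries, with replicate or clone 1, 2 and 3 as circle, square and triangle, and the mean ± SD beside them. All red points lie above all grey points for *JAG1*, *JAG2*, *HEY1* and *HEY2*, and the points of the 2 groups overlap for the other 6 genes.

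Among the ligand genes, *JAG1* (chr20:10637684-10673999, minus strand) encodes Jagged-1, a transmembrane ligand of all 3 receptors. It was measured at 90.4, 86.1 and 91.6 normalized counts in Control replicates 1 to 3 and at 164, 200.4 and 291 in SAMD1 KO clones 1 to 3. The Control replicates lay within a narrow range, every clone was above it, and clone 3 was the highest. The means were 89.4 ± 2.90 and 218 ± 65.1 (SD, n = 3 each), with a change of 1.24 on the log2 scale (standard error 0.21, 95% interval 0.74 to 1.74, limma adjusted p = 0.0114).

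The clones differed in the size of this rise, with log2 differences from the Control mean of 0.87, 1.16 and 1.69. When any 1 library was left out, the change lay between 1.01 and 1.42 and *JAG1* remained called, with limma adjusted p-values of up to 0.0624. The promoter printed above for *JAG1* held its 3 GCGC matches between −60 and −49.

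*JAG2* (chr14:105140982-105168824, minus strand), which encodes the related ligand Jagged-2, was measured at 646, 770.0 and 666 normalized counts in Control and at 1176, 1671 and 1320.4 in SAMD1 KO cells. Every clone lay above every Control library, with clone 2 highest. The means were 694 ± 66.6 and 1389 ± 255, a change of 0.99 on the log2 scale (standard error 0.14, 95% interval 0.67 to 1.31, limma adjusted p = 0.00527). Leaving out each library in turn gave values from 0.85 to 1.10, with an adjusted p of at most 0.0378 by limma.

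*DLL1* (chr6:170282206-170306565, minus strand), the gene of the ligand Delta-like 1, was near the filter, with 21.7, 15.7 and 16.0 in Control and 10.9, 38.0 and 31.5 in SAMD1 KO cells. Clone 1 was the lowest of the 6 libraries and clones 2 and 3 the highest, so the groups overlapped. The log2 fold change was 0.41 with a wide 95% interval, from −0.68 to 1.50 (standard error 0.46, limma adjusted p = 0.603). Without clone 1 it was 0.94 (limma adjusted p = 0.0571) and without clone 2 it was 0.08. *DLL1* overlaps *FAM120B* on the other strand, and since the strand setting of the counting is not given in the sources used here, reads of the pair may not be told apart.

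Of the HES/HEY genes, which encode basic helix-loop-helix repressors, *HEY1* (chr8:79762371-79767857, minus strand) had the largest change of the 10 genes. Its normalized counts were 38.9, 55.8 and 42.4 in Control and 210.6, 232 and 357 in SAMD1 KO cells. No SAMD1 KO library came near the Control range, and clone 3 was again the highest, as for *JAG1*. The means were 45.7 ± 8.91 and 267 ± 79.0 (SD, n = 3 each), a change of 2.50 on the log2 scale (standard error 0.24, 95% interval 1.93 to 3.06, limma adjusted p = 0.00137). The clones differed from the Control mean by 2.20, 2.34 and 2.96 on the log2 scale, and leaving out any 1 library gave 2.27 to 2.65.

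*HEY2* (chr6:125747664-125761269, plus strand), a close relative of *HEY1* that is known from heart and vessel development, had 30.9, 31.3 and 29.8 in Control and 129, 178 and 155 in SAMD1 KO cells. The Control replicates differed by less than 2 counts, and all 3 clones were well above them, with clone 2 highest. The means were 30.7 ± 0.788 and 154 ± 24.7, a change of 2.28 on the log2 scale (standard error 0.18, 95% interval 1.86 to 2.69, limma adjusted p = 0.000698). By p-value *HEY2* ranked 49 and *HEY1* 112 among the 12773 tested genes, ahead of *JAG2* (356) and *JAG1* (602).

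*HES1* (chr3:194136148-194138732, plus strand), the classical Notch target, had 105, 116 and 131 in Control and 196, 117 and 218 in SAMD1 KO cells. Clones 1 and 3 were above all Control libraries, and clone 2 lay at the middle Control value. The mean was 117 ± 12.7 for Control and 177 ± 53.2 for SAMD1 KO cells, and the difference of 0.54 on the log2 scale (standard error 0.24, 95% interval −0.03 to 1.11) did not pass the test (limma adjusted p = 0.187). Without clone 2 it was 0.81 and passed the cut-off (limma adjusted p = 0.0187).

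*HES4* (chr1:998962-1000172, minus strand), a HES gene without a counterpart in the mouse, had 86.9, 105 and 110.0 in Control and 105, 156 and 129 in SAMD1 KO cells. Clones 2 and 3 were above the Control range and clone 1 was inside it. The difference on the log2 scale was 0.36 (standard error 0.19, 95% interval −0.09 to 0.80, limma adjusted p = 0.255). The 2 HES genes thus had 95% intervals that reached from just below 0 to 1.11 and 0.80, and those of the 2 HEY genes began at 1.86 or above.

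**Figure D3:**
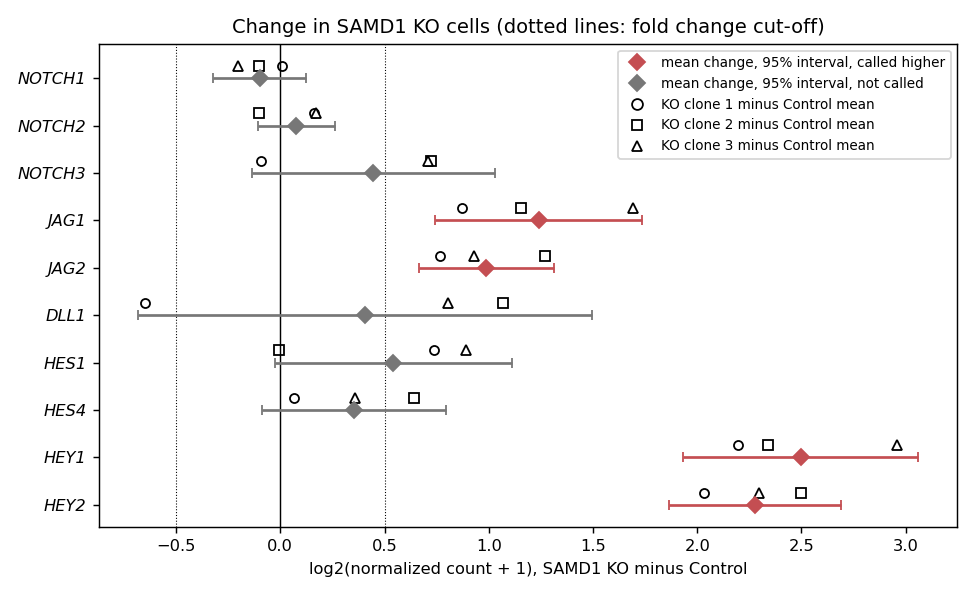
Log2 fold change (SAMD1 KO minus Control, log2(normalized count + 1)) of the 10 genes, with diamonds and bars for the limma estimate and its 95% interval (red where called higher), open symbols for each clone minus the Control mean, and dotted lines at −0.5 and 0.5. *JAG1*, *JAG2*, *HEY1* and *HEY2* stand to the right of the cut-off with all 3 clones. For *NOTCH2*, *NOTCH3*, *HES1* and *DLL1* 1 clone lies at or below 0, and for *NOTCH1* clones 2 and 3 do.

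The clones were not ordered alike in the 4 genes that rose. Clone 3 was highest for *JAG1* and *HEY1*, and clone 2 was highest for *JAG2* and *HEY2*, while clone 1 was the lowest for all 4. Clone 1 was also the lowest SAMD1 KO library for *NOTCH3*, *DLL1* and *HES4*, but not for *HES1*, where clone 2 was lowest. An exact permutation test of 3 against 3 libraries (two-sided) gave p = 0.1 for each of the 4 genes, the smallest value it can give, and at least 0.2 for the other 6.

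To compare levels between genes, normalized counts were divided by the length of the merged exons in kb. In Control cells the order of these levels was *NOTCH2* (327), *NOTCH1* (114), *JAG2* (108), *HES4* (89.9), *HES1* (57.0), *NOTCH3* (14.1), *HEY2* (11.4), *JAG1* (9.61), *HEY1* (8.33) and *DLL1* (4.66). Of the neighbours in this order, *NOTCH1* and *JAG2* overlapped between libraries, as did *JAG1* and *HEY1*. In SAMD1 KO cells the order was *NOTCH2* (346), *JAG2* (217), *HES4* (116), *NOTCH1* (106), *HES1* (85.8), *HEY2* (57.2), *HEY1* (48.6), *JAG1* (23.5), *NOTCH3* (19.8) and *DLL1* (7.02). There the libraries of the neighbours from *HES4* through *NOTCH1*, *HES1* and *HEY2* to *HEY1* overlapped pair by pair, and so did those of *JAG1* and *NOTCH3*. The place of *HEY1* rests on its merged exon length, and with coding lengths *HEY1* came first of the 4 HES/HEY genes in SAMD1 KO cells (34.4% of their summed level, against 25.5% for *HES1*, 21.5% for *HES4* and 18.6% for *HEY2*).

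The summed level per kb of the 3 receptor genes was 455 ± 16.2 for Control and 472 ± 33.0 for SAMD1 KO cells, that of the 3 ligand genes 123 ± 9.54 and 248 ± 44.2, and that of the 4 HES/HEY genes 167 ± 17.2 and 308 ± 34.3 (SD, n = 3 each). Within these sums *NOTCH2* held 71.9% of the receptor level in Control and 73.2% in SAMD1 KO cells, and *JAG2* held 88.3% and 87.7% of the ligand level. The make-up of these 3 receptor genes and of these 3 ligand genes thus overlapped between the groups. The sum of the 3 ligand genes was still higher in each clone than in any Control library. Other ligand genes are left out of it, among them *DLL4*, with a Control mean of 204 normalized counts, above the 89.4 of *JAG1*. The mean of *DLL4* fell to 52.0 for the clones, without overlap, so the shares do not describe the ligands as a whole.

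The make-up of the summed level of these 4 HES/HEY genes differed without overlap for 3 of them. This sum leaves out other genes of the family, such as *HES6*, with a mean normalized count of 510 in Control and 1031 in SAMD1 KO cells. The share of *HEY1* was 5.00 ± 0.833% for Control and 15.6 ± 2.91% for SAMD1 KO cells, and that of *HEY2* was 6.90 ± 0.836% and 18.6 ± 2.69%. The share of *HES4* was 53.9 ± 0.992% and 37.8 ± 6.97%, and that of *HES1*, whose libraries overlapped, 34.2 ± 1.19% and 28.0 ± 8.36%. The exact two-sided permutation test gave p = 0.1 for *HEY1*, *HEY2* and *HES4* (adjusted p = 0.333 over 10 shares), the smallest it can give, so no share could pass the test in this design. The merged exons of *HEY1* cover its whole extent of 5487 bases, because annotated transcripts retain introns, and with the coding length of 924 bases instead the difference in its share was 20.5 percentage points in place of 10.6.

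**Figure D4:**
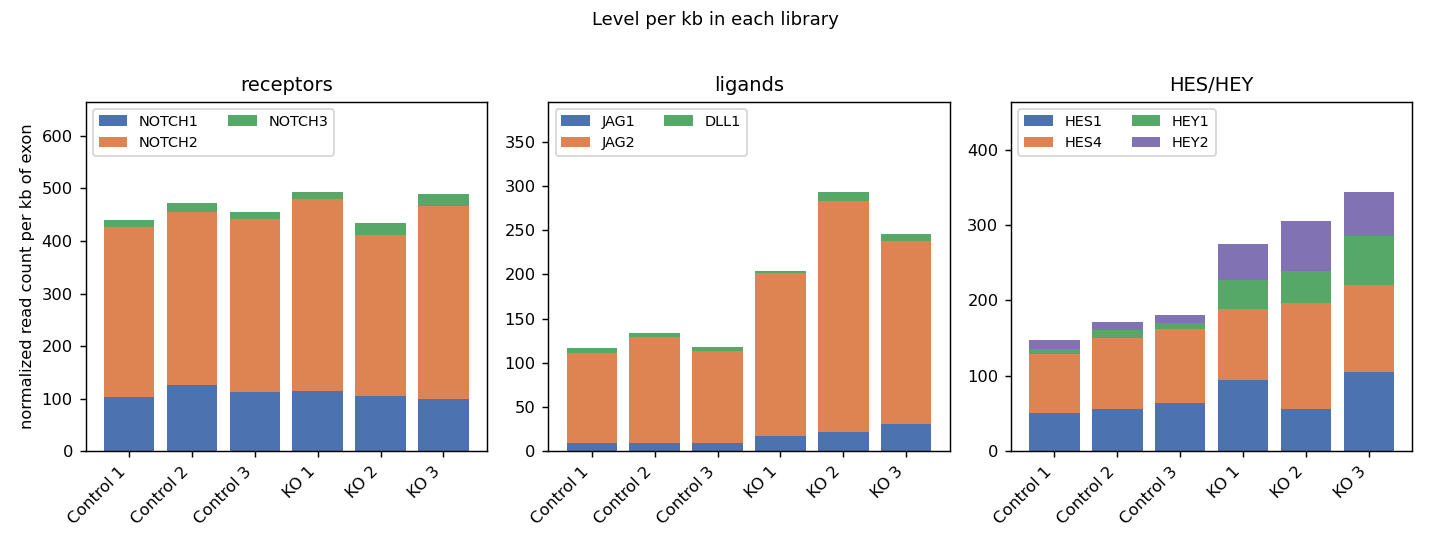
Normalized read count per kb of exon in each of the 6 libraries, stacked by gene within the receptors, the ligands and the HES/HEY genes (vertical axes from 0, with a separate scale for each class). The receptor bars have similar heights in both groups (means of 455 and 472), the ligand bars grow mainly by *JAG2*, and the HES/HEY bars grow mainly by *HEY1* and *HEY2*.

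For each of the 4 genes that rose, the 3 genes with the most similar pattern were sought among the 11453 genes that averaged 50 or more normalized reads, by the root mean square difference of their log2 values from the Control mean over the 6 libraries. Those nearest to *HEY2* were *L3MBTL3* (0.10), *PCDH1* (0.12) and *GALNT16* (0.18), and those nearest to *HEY1* were *MTSS1*, *CA8* and *GALNT16* (0.252 to 0.260). *HEY2* was at place 6 for *HEY1* and *HEY1* at place 25 for *HEY2*, at a difference of 0.32, while *JAG2* was at place 141 for *JAG1* and *JAG1* at place 441 for *JAG2* at a similar difference of 0.33. Within a difference of 0.25 there were 0 genes for *HEY1*, 13 for *HEY2*, 39 for *JAG1* and 187 for *JAG2*. The nearest to *JAG1* were *AKAP6*, *TENT5A* and *RASGRP1* (0.13 to 0.15), and those nearest to *JAG2* were *HOXB3* (0.06), *HES6* (0.08) and *METRN* (0.09). *L3MBTL3* is on chromosome 6, as is *HEY2*, and *MTSS1* and *CA8* are on chromosome 8, as is *HEY1*. *PCDH1*, *GALNT16* and the genes nearest to *JAG1* and *JAG2* are not on the chromosome of the gene they resemble. Whether position has a part in the similarity was not tested.

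Another 74 genes of the Notch pathway were placed in 5 lists, and 63 of them passed the filter. Of these, 6 were called higher and 2 lower, beside 5.77% and 2.08% of all tested genes, and the median log2 fold change was 0.03. The number called higher ranged from 5 to 9 over the alternatives, with 8 by edgeR and 9 by DESeq2. In the list of glycosylation and processing genes, which modify the receptors and cut them (*ADAM10*, *ADAM17* and the gamma-secretase genes among them), 0 of 17 were called by limma, and the median was −0.05. At an unadjusted p below 0.05 alone, 1 of the 17 was higher and 1 lower, and both edgeR and DESeq2 called 1, *GXYLT2*. The smallest p-values there belonged to *POGLUT1*, the glucosyltransferase of the receptors' EGF repeats, with a log2 fold change of −0.43 (limma adjusted p = 0.0155), *GXYLT2* (0.50, limma adjusted p = 0.0446) and *APH1B* (−0.17, limma adjusted p = 0.188). *POGLUT1* and *GXYLT2* missed the cut-off by their size only.

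Among 4 tested genes of other receptors and ligands, *DLL4*, the gene of a Delta-like ligand known from vessel sprouting, was lower. Its normalized counts were 207, 199 and 205 in Control and 46.5, 51.8 and 57.6 in SAMD1 KO cells, a change of −1.95 on the log2 scale (standard error 0.14, limma adjusted p = 0.000579). All 3 clones lay far below the Control replicates, the opposite of *JAG1* and *JAG2*. *DLK2*, an atypical ligand, had 0.62 without passing the cut-off by limma (adjusted p = 0.0687), but edgeR and DESeq2 both called it higher (0.65 each). *DLL3*, with few reads and overlapping libraries, had 0.96 (limma adjusted p = 0.488), which became 0.14 without clone 2 and 1.71 without clone 3.

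In the list of endocytosis and turnover, 1 of 12 tested genes was higher and 1 lower, beside 5.77% and 2.08% of all tested genes. *NEURL1*, a ubiquitin ligase that acts on ligands, had 0, 5 and 6 reads in Control and 30, 72 and 21 in SAMD1 KO cells. Its log2 fold change of 3.23 (limma adjusted p = 0.0442) moved to 4.43 with a pseudocount of 0.1 and to 1.68 with 10, and it was no longer called with the former, without clone 1 or without clone 2. *DTX3*, of the Deltex family of ubiquitin ligases, had 287, 286 and 265 in Control and 170.1, 224 and 157 in SAMD1 KO cells, with a log2 fold change of −0.62 (limma adjusted p = 0.0397) that lost its call in 5 of the 6 fits with a library left out. *MIB1*, the main ubiquitin ligase of the ligands, had a log2 fold change of 0.18 (limma adjusted p = 0.0815).

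Of 20 tested genes of the RBPJ complex, 2 were higher and 0 lower by limma, edgeR and DESeq2 alike, with 1 lower at an unadjusted p below 0.05 alone. By limma 5.77% of all tested genes were higher and 2.08% lower. *MAML3*, a Mastermind co-activator, had 53.8, 76.3 and 65.3 in Control and 189.9, 290.3 and 298 in SAMD1 KO cells, a change of 1.96 on the log2 scale (standard error 0.22, limma adjusted p = 0.00255). *L3MBTL3*, whose protein is a co-repressor bound to RBPJ and is also a partner of the SAMD1 protein, stood at 2.20 (standard error 0.10, limma adjusted p = 0.00012), a size like that of *HEY2*. Both genes were higher in every clone than in any Control library. The groups did not overlap for 6 of the 20 genes in the list, beside 37.8% of all tested genes. *RBPJ* itself had 0.13 (limma adjusted p = 0.238), *CIR1*, a co-repressor gene, 0.19 (limma adjusted p = 0.103) and *KDM1A*, a demethylase gene, −0.04 (limma adjusted p = 0.696).

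In the list of other HES/HEY family genes and targets, 3 of 10 tested genes were higher and 0 lower, with a median of 0.67. Of all tested genes, 5.77% were higher and 2.08% lower. None of the 10 was lower at an unadjusted p below 0.05 or by edgeR or DESeq2, and DESeq2 called a further one, *HES7*, higher. *HES6* had 474, 537 and 520.0 in Control and 795, 1246 and 1053 in SAMD1 KO cells, a log2 fold change of 0.99 (limma adjusted p = 0.00888). *NRARP*, a Notch target that feeds back on the pathway, had 239, 241 and 191 in Control and 421, 495 and 327 in SAMD1 KO cells, a log2 fold change of 0.87 (limma adjusted p = 0.0198). *BHLHE40*, a related repressor of the hypoxia and clock pathways, stood at 0.58 (limma adjusted p = 0.00137), which became 0.38 and lost its call once the median of 40 neighbouring genes was removed. In all 3 of these genes every clone lay above every Control library. The groups did not overlap for 5 of the 10 genes in the list, beside 37.8% of all tested genes. *HES3*, *HES5* and *HEYL* had no reads in any library, which allows up to 3 reads per library.

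**Figure D5:**
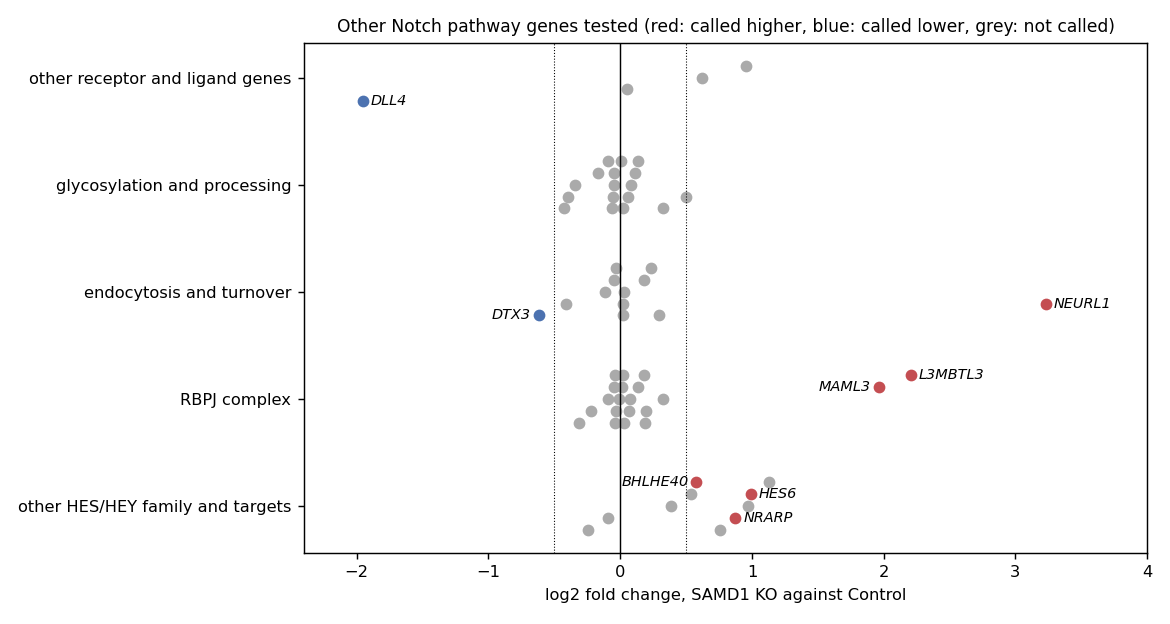
Log2 fold change (SAMD1 KO against Control) of the 63 tested genes of 5 other Notch pathway lists, 1 point per gene, red where called higher and blue where called lower, with dotted lines at −0.5 and 0.5 and points spread vertically within a list for legibility. *L3MBTL3*, *MAML3* and *NEURL1* lie far to the right and *DLL4* far to the left, and no gene of the glycosylation and processing list is called.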

How the data were processed

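RNA of 3 Control and 3 SAMD1 KO libraries of PaTu8988t cells was analysed. Per the study's methods the authors mapped reads with RNA-STAR, and the labels name featureCounts, DESeq2 and hg38. The deposited values are a signal, normalized counts, made by dividing reads by a DESeq2 size factor for each library. In all libraries 100% of values were whole multiples of 1 step (tolerance 0.01 reads), so whole reads were recovered, with totals of 35589477 to 45172216. At this depth the number of libraries limits precision more than counting error, except for genes with few reads. A second deposited table holds the authors' own DESeq2 comparison (fold changes, p-values) and was not used. All columns of normalized counts were used, leaving 0.

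limma 3.58.1 (lmFit, eBayes with trend, R 4.3.3) was fitted to log2(normalized count + 1) of the 12773 genes with a mean of at least 10, since the deposited values are not raw counts. Fold changes are on this scale, which understates the change of low genes. The p-values were adjusted by Benjamini-Hochberg over all tested genes, and all tests were two-sided. The cut-off for a call, from the study's methods, was an unadjusted p below 0.01 and a change above 0.5 in size on the log2 scale. Shares of the level per kb used an exact permutation test. The fits were tested on simulated data before use. The alternatives were pseudocounts of 0.1 and 10, no filter or a mean of at least 50, scaling to equal 75th percentiles, a block for the replicate number, leaving out single libraries, edgeR 4.0.16 (quasi-likelihood) and DESeq2 1.42.0 on whole reads, an adjusted p below 0.05 in the cut-off, removal of the median of 40 neighbouring genes, and coding length or no length for shares.

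The genes named are the 10 genes, *SAMD1*, every called gene and up to 3 genes of smallest p in each pathway list, and the 3 nearest in pattern to each called gene. *RBPJ*, *KDM1A*, *ADAM10*, *ADAM17*, the NOTCH2NL genes, *FAM120B*, *HES7*, the TLE genes, *FHL1* and the genes without or with few reads are not covered by it and were picked with their values in view. The same holds for the markers given with a mean or a call. The genes and lists were chosen with earlier results of these data known. Gene positions are from GENCODE 44 on GRCh38, matched by symbol, and promoters from RefSeq (GRCh38.p14). Python 3.11.15 with pandas 2.3.3 and SciPy 1.17.1 was used for other steps.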

Additional observations from a re-analysis of the deposited data

How the results depend on the processing

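The count of called genes among the 10 stayed at 4 higher and 0 lower under every alternative except leaving out SAMD1 KO clone 1 or clone 2, each of which gave 5 higher, because *NOTCH3* (0.72 without clone 1) and *HES1* (0.81 without clone 2) then passed the cut-off. With each library left out in turn, *NOTCH3* ranged from 0.31 to 0.72 and *HES1* from 0.37 to 0.81 on the log2 scale, *DLL1* from 0.08 to 0.94, and the other pathway genes called lower numbered 1 to 2, since *DTX3* was lost. Over all genes the counts then ranged from 568 to 862 higher and from 180 to 370 lower. *DLL1* could not be fitted with a mean of at least 50. No log2 fold change of the 10 genes changed sign under any alternative. The difference in share of the HES/HEY level moved from −6.24 percentage points for *HES1* to −13.9 with coding length and −15.6 without length scaling, and from 10.6 for *HEY1* to 20.5 and 20.7, because the lengths of these genes differ. Whether the replicate numbers pair the samples cannot be settled here. The correlations of deviations of same-numbered libraries were 0.04, 0.13 and 0.03, and those of the other pairs ran from −0.07 to 0.04. Each clone correlated best with the Control replicate of its number, but Control replicate 3 correlated best with clone 1. With the replicate number as a block, 4 of the 10 genes were higher (for *JAG1* limma adjusted p = 0.0211), 7 other pathway genes were higher and 2 lower, and 725 genes in all were higher and 259 lower. Other pathway genes called higher numbered 5 to 9. *DLL1*, *DLL3* and *NEURL1* had the fewest reads of the genes named with a fold change.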

Other observations

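The SAMD1 KO clones varied more among themselves than the Control replicates did. The SD of log2(normalized count + 1) was larger in the SAMD1 KO group for 9 of the 10 genes, all but *NOTCH1*, and for 82.8% of all tested genes, with medians of 0.34 against 0.15 for the 10 genes and of 0.15 against 0.06 for all tested genes. For *JAG1* the SD was 0.42 among the clones and 0.05 among the Control replicates, and for *HEY2* 0.23 and 0.04. The limma fit assumes 1 spread for both groups.

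*BHLHE41*, a relative of *BHLHE40*, was under the filter with Control reads of 2, 1 and 1 and SAMD1 KO reads of 10, 19 and 16. *NOTCH4*, the remaining receptor gene, had at most 1 read in any library. *DNER*, an atypical ligand gene, had 6 or 7 reads in each Control replicate and 9, 6 and 14 in the clones.

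Of the 5 TLE genes, which encode co-repressors of the HES/HEY proteins, 4 had a value in clone 1 outside the range of the other 5 libraries. *TLE1* had normalized counts of 1449.6 in clone 1 and from 766 to 907 elsewhere, *TLE2* 299.6 and from 83.8 to 121, *TLE3* 106 and from 8.10 to 10.3, and *TLE4*, in the other direction, 4455 and from 7499 to 11431. *FHL1*, of the RBPJ complex list, had 75202 in clone 1 and from 21434 to 28740 elsewhere, a log2 difference of 1.42 from the Control mean in clone 1, where the median of its 40 neighbouring genes stood at 0.92. These values were noticed after the data were seen and were not tested.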
